A study of Mus musculus with 17 samples.

Results

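The genes examined were those of oxidative phosphorylation, taken as every row of the count table whose symbol began with Nduf, Uqcr, Cox4 to Cox8 or Atp5, or was Sdha, Sdhb, Sdhc, Sdhd, Cyc1 or Cycs. Of 10207 rows with a symbol, 85 matched, with 34 in complex I, 4 in complex II, 9 in complex III, 16 in complex IV, 15 in complex V and 7 that encode assembly factors or carry an ATP synthase name without being a subunit. Cycs, which encodes cytochrome c, had no row, and neither had any of the 13 subunits encoded in mitochondrial DNA, so the results concern nuclear-encoded subunits only. After a filter on low counts 81 of the 85 genes were tested, and Atp5g2, Atp5l, Atp5s and Cox6a2 were not.

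Complexes I and II pass electrons from NADH and succinate to ubiquinone, complex III passes them to cytochrome c, and complex IV passes them to oxygen. Complexes I, III and IV pump protons, and complex V, the ATP synthase, lets them flow back and makes ATP. Complex II is also the succinate dehydrogenase of the citric acid cycle, and complexes I, III, IV and V hold subunits from both genomes whereas complex II is encoded in the nucleus alone. Macrophages are known to shift between glycolysis and oxidative metabolism with their state, while neutrophils are known for few mitochondria and a largely glycolytic metabolism.

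RNA was measured in 11 libraries of sorted cells from female BALB/c mice. Tumor-associated macrophages (TAM, 3 libraries) were CD11b+ Gr1- F4/80+ cells from mammary tumors grown from 100000 injected 4T1-luc cells (a mammary carcinoma line of mouse origin that carries luciferase) and taken at 1 cm. BMDM_T (4 libraries) were CD11b+ Gr1+ F4/80 low marrow cells of tumor-bearing mice, which the labels call monocytes, and BMDM_H (4 libraries) were cells of the same gate from healthy mice. By the labels, TAM and BMDM_T mice were 8 weeks old and BMDM_H mice 12 weeks, although age-matching is stated in the series design, so tumor and label age cannot be told apart between the marrow groups. TAM and BMDM_T differ in tissue, in gate and in collagenase digestion against flushing and red cell lysis, and these cannot be told apart either.

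Libraries were sequenced from the 3′ end of mRNA. Total counts were 1748338 to 3747929 in TAM, 931278 to 1218977 in BMDM_T and 387940 to 1286844 in BMDM_H, and the 85 genes took 1.81% to 2.61% of them. Values below are CPM, edgeR counts scaled to library size with TMM factors, and errors are standard deviations (SD) over libraries or standard errors (SE) of fold changes. No label ties a replicate to its own mouse, and the p-values therefore reflect only how much these libraries vary, which may be technical. All 8 macrophage markers (C1qa, C1qb, C1qc, Apoe, Adgre1, Csf1r, Mrc1 and Cd68) were higher in TAM, with a summed level of 59090 to 73070 CPM, against 2095 to 2591 CPM in BMDM_T and 2689 to 3680 CPM in BMDM_H. The 12 neutrophil granule markers, among them Ngp, Camp, S100a8 and S100a9, summed to 330.6 to 556.9 CPM in TAM, against 163500 to 198300 CPM in BMDM_T and 137000 to 208300 CPM in BMDM_H, which goes against the monocyte label of the marrow gate, although the 4 monocyte markers were present too. B lineage markers summed to 6.67 to 13.8 CPM in TAM, against 236.3 to 415.6 CPM in BMDM_T and 121 to 310.6 CPM in BMDM_H. The 6 carcinoma and epithelial markers summed to 49.5 to 95.5 CPM in TAM, 9.69 to 33.5 CPM in BMDM_T and 18.3 to 61.4 CPM in BMDM_H, which overlapped TAM. Most of that sum in TAM was Krt18, with means of 51.9, 11.2 and 24.4 CPM in TAM, BMDM_T and BMDM_H. Krt8 (12.0, 3.66 and 4.06 CPM), Krt14 (2.72, 0.919 and 1.13 CPM) and Krt19 (1.74, 0.226 and 0.199 CPM) also had their highest mean in TAM. Epcam, with means of 1.94, 2.31 and 2.83 CPM, and Cldn4, with 3.35, 2.99 and 6.74 CPM, had theirs in BMDM_H. The 5 proliferation markers in the table summed to 239.5 to 248.4 CPM in TAM, against 752.6 to 1026 CPM in BMDM_T and 705.2 to 998.6 CPM in BMDM_H. The 4 fibroblast and endothelial markers in the table summed to 59.2 to 93.9 CPM in TAM. They summed to 17.3 to 33.4 CPM in BMDM_T and 9.30 to 50.1 CPM in BMDM_H. Of these, Pecam1 was called higher in TAM than in BMDM_T, with means of 62.2 and 23.4 CPM, while Col1a1 and Col1a2 were not called. The part of cell type and of proliferation in the differences below was not tested. In bulk samples, fewer cells of a type and less RNA per cell cannot be told apart.

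TAM were first set against BMDM_T. All 4 genes of complex II and 4 of the 5 F1 subunits of ATP synthase were higher in TAM, while complexes I, III and IV were split or largely not called. Of the 81 tested genes, 25 were higher and 6 lower in TAM at an adjusted p under 0.05 (edgeR quasi-likelihood test, Benjamini-Hochberg adjustment over all 7518 genes tested). That is 38.3% called, against 58.9% of all genes tested, of which 30.1% were higher and 28.7% lower. The share of calls was therefore below that of the whole table, and the median log2 fold change was 0.25 for the 81 genes, beside 0.03 for all genes. Of the 81 genes 58 had a positive and 23 a negative log2 fold change, and in 31 the libraries of the groups did not overlap (38.3%, against 58.1% of all genes tested). Without TAM replicate 3, the deepest library, 16 genes were higher and 9 lower.

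**Figure D1:**
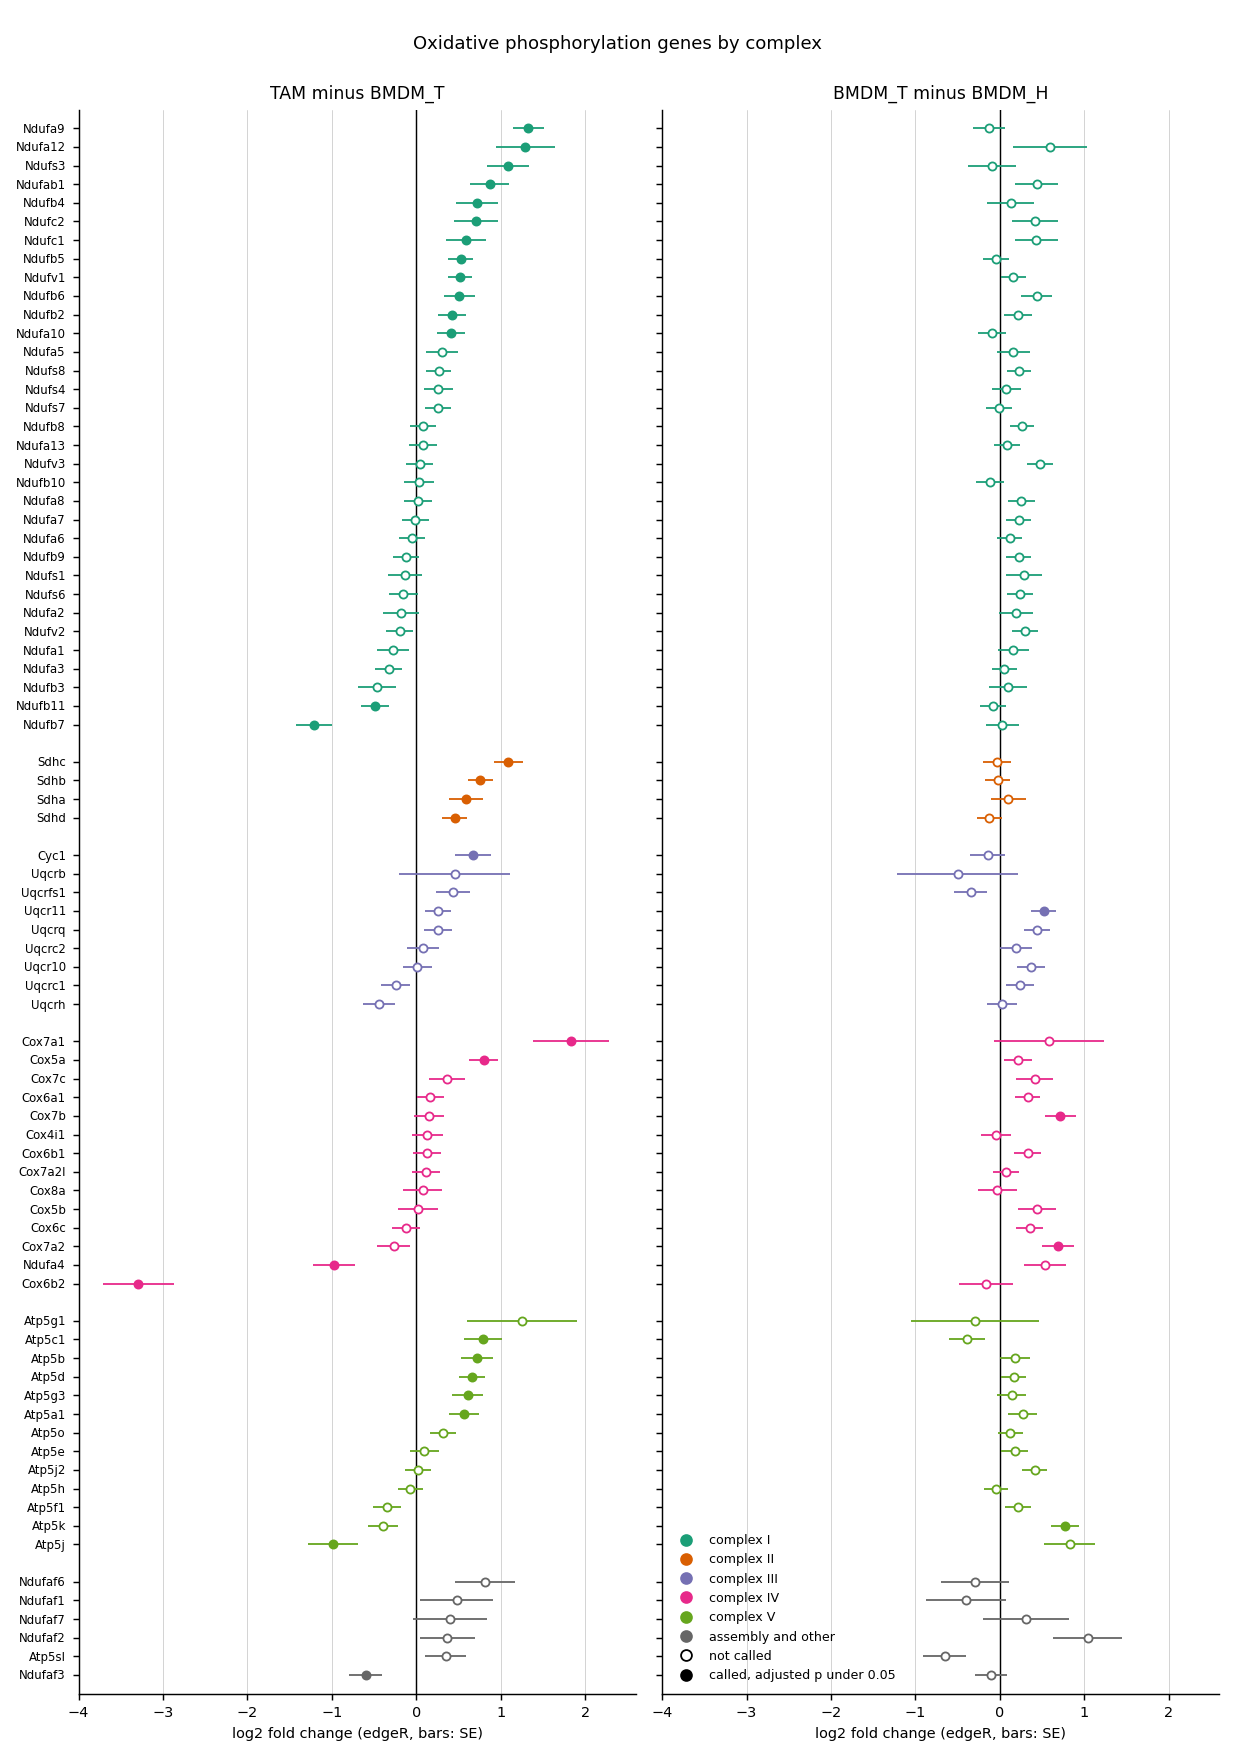
Log2 fold changes of tested oxidative phosphorylation genes, grouped by complex, for TAM minus BMDM_T (left) and BMDM_T minus BMDM_H (right). Points are edgeR estimates, bars their SE, and filled points were called at an adjusted p under 0.05. Not every tested gene is shown, and Cox4i2, with 0 counts in every marrow library, is left out. Complex II lies to the right of 0 in the left panel with all 4 genes filled, and 4 genes are filled in the right panel.

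The summed level of each complex is given next, and its abundant genes weigh most in it. Complex II summed to 1169, 1088 and 1253 CPM in TAM, against 615, 633, 697 and 731 CPM in BMDM_T and 665, 676, 733 and 651 CPM in BMDM_H. The 3 TAM libraries were above all 8 marrow libraries, and the 2 marrow groups overlapped. As a share of all 85 genes, complex II held 4.86% ± 0.18 in TAM (SD, n = 3), 3.05% ± 0.16 in BMDM_T and 3.51% ± 0.14 in BMDM_H (n = 4 each).

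Complex V summed to 6510 ± 446 CPM in TAM, 5264 ± 342 CPM in BMDM_T and 4497 ± 238 CPM in BMDM_H, and the libraries of no group overlapped those of another. Complex IV summed to 5286 ± 377, 4783 ± 284 and 4149 ± 266 CPM in TAM, BMDM_T and BMDM_H. Its TAM and BMDM_T libraries overlapped, and all of them but BMDM_T replicate 1 exceeded every BMDM_H library. The complex I sum was nearly level, with 7749 ± 329 CPM in TAM, 7972 ± 452 CPM in BMDM_T and 7251 ± 557 CPM in BMDM_H. The libraries overlapped, and the log2 ratio of the complex I means of TAM over BMDM_T was -0.04, against 0.11 with scaling to total counts alone. Into this sum went the fall of the abundant Ndufb7, with 474, 362 and 360 CPM in TAM, against 871, 690, 988 and 1142 CPM in BMDM_T. Of the 34 complex I genes, 22 had a positive and 12 a negative log2 fold change of TAM over BMDM_T (median 0.12). Complex III summed to 3208 ± 91 CPM in TAM, 3100 ± 385 CPM in BMDM_T and 2685 ± 187 CPM in BMDM_H. As a share of the 85 genes, complex I held 32.3% ± 1.5 in TAM, 36.4% ± 1.1 in BMDM_T and 37.4% ± 1.2 in BMDM_H, and the TAM shares (31.3% to 33.9%) lay below all BMDM_T shares (34.9% to 37.3%).

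**Figure D2:**
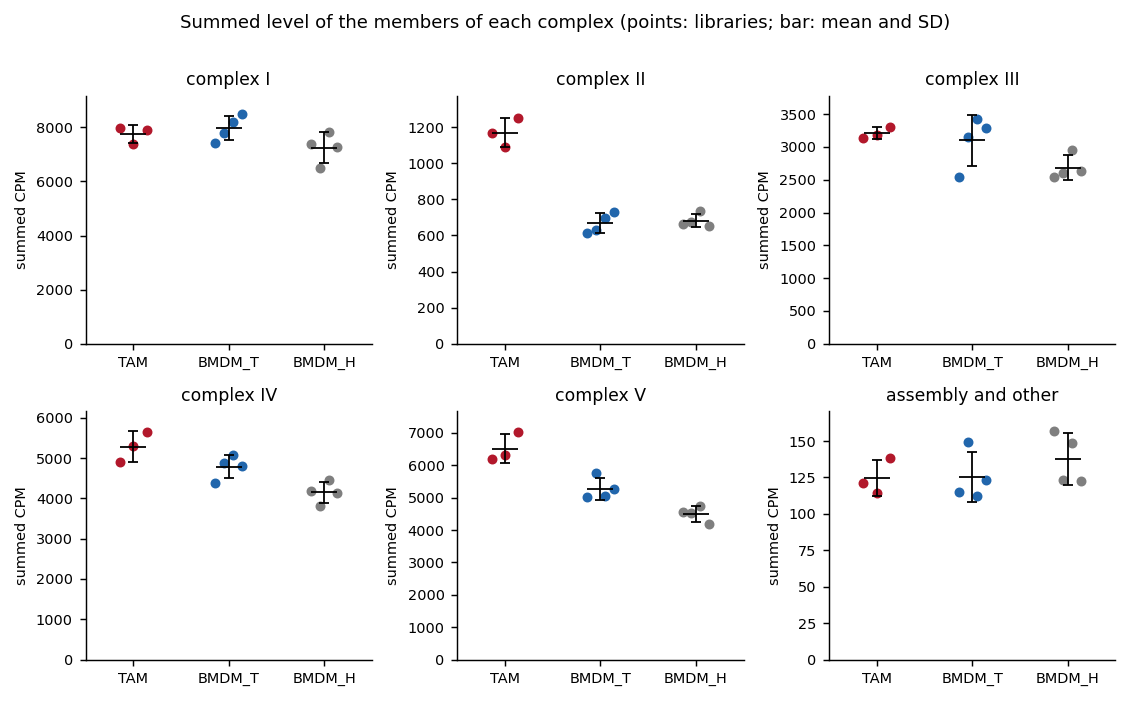
Summed CPM of the genes of each complex in each library (points), with the group mean and SD (bars), for TAM, BMDM_T and BMDM_H. The complex II sums of TAM, 1088 to 1253 CPM, lie above all marrow libraries, whereas the complex I sums of the 3 groups overlap.

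Complex II has a catalytic head of Sdha, the flavoprotein that oxidises succinate, and Sdhb, the iron-sulfur protein, held to the membrane by the anchors Sdhc and Sdhd. Sdhc (chr1:171127165-171150603, minus strand, mm10) had 391, 363 and 490 CPM in TAM, against 166, 173, 222 and 221 CPM in BMDM_T and 176, 212, 231 and 180 CPM in BMDM_H. Every TAM library was above every marrow library, and the log2 fold change over BMDM_T was 1.09 ± 0.17 (SE, adjusted p = 1.48e-05 by edgeR). Sdhb (chr4:140961203-140979193, plus strand) had 553, 472 and 504 CPM in TAM, against 300, 282, 293 and 331 CPM in BMDM_T and 311, 270, 331 and 320 CPM in BMDM_H. Its log2 fold change was 0.76 ± 0.15 (adjusted p = 0.000223 by edgeR), again with no overlap.

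Sdha (chr13:74322254-74350280, minus strand) was higher in TAM by a smaller step, with 104, 120 and 114 CPM in TAM, against 48.5, 88.2, 83.1 and 79.4 CPM in BMDM_T and 61.3, 92.5, 61.4 and 57.3 CPM in BMDM_H. The log2 fold change was 0.59 ± 0.20 (adjusted p = 0.0155 by edgeR), and the call was lost without BMDM_T replicate 1 (adjusted p = 0.0687) or without TAM replicate 2 (adjusted p = 0.0603). Sdhd (chr9:50596357-50603812, minus strand) had 121, 133 and 145 CPM in TAM, against 100, 89.9, 99.3 and 99.2 CPM in BMDM_T and 116, 101, 110 and 93.7 CPM in BMDM_H. Its log2 fold change of 0.46 ± 0.15 (adjusted p = 0.0124 by edgeR) was lost without TAM replicate 3 (adjusted p = 0.0701) and on thinning all libraries to the lowest total (adjusted p = 0.16), and against BMDM_H the log2 fold change of 0.33 ± 0.15 was not called (adjusted p = 0.0682).

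Promoter windows of the complex II genes from RefSeq (build GRCm38.p6) were searched on both strands for 4 motifs, and those with a match are shown by the site. The NRF1 motif, a pair of GCGC runs separated by any base and a T, lay in 12 of the 72 windows of 250 bases before a start that were found for 67 of the 85 genes (16.7%), and in 3.74% of all 32851 such windows. The ETS motif CCGGAAGT lay in 4.17% and 2.88% of them, the YY1 motif AAGATGGCG in 1.39% and 0.606%, and the ERR motif AAGGTCA in 5.56% and 4.08%, and no match of one motif overlapped that of another in the windows of these genes. Sdha held the NRF1 letters 98, 55 and 10 bases before its start and Sdhd held them 79 bases before its start, counted from the match's first base. The first 2 sites of Sdha and the site of Sdhd are given in 30 bases, 5′ to 3′ on the gene's strand, with the match in capitals. In the Sdhb window, shown as its part without annotated exons (chr4:140961021-140961202, plus strand), none of the 4 motifs was found, and Sdhc had no window. A match describes the letters and not binding, and the part of these motifs in the differences was not tested.
Sdha, chr13:74350319-74350348, minus strand: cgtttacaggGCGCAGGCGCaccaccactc
Sdha, chr13:74350276-74350305, minus strand: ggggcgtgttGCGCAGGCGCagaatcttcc
Sdhd, chr9:50603909-50603938, minus strand: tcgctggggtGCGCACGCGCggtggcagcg
Sdhb, no match: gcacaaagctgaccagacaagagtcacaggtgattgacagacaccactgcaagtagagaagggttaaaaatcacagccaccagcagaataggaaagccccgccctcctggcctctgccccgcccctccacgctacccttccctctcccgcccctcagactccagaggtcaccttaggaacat

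Complex V had 5 of 13 tested genes higher and 1 lower in TAM, and 4 of the 5 higher genes belong to one part of the enzyme. The F1 part, where ATP is made, had 4 of 5 genes higher and none lower. Atp5b (chr10:128083273-128090391, plus strand), the catalytic beta subunit, had 930.1, 1079.9 and 1276 CPM in TAM, against 659, 800, 622 and 584 CPM in BMDM_T. The groups did not overlap, and the log2 fold change was 0.72 ± 0.19 (SE, adjusted p = 0.00264 by edgeR). Atp5a1, the alpha subunit, had 696, 772 and 772 CPM in TAM, against 444, 647, 440 and 487 CPM in BMDM_T, with a log2 fold change of 0.56 ± 0.18 (adjusted p = 0.0091 by edgeR).

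Atp5d, the delta subunit of the rotor, had 1061, 933 and 874 CPM in TAM, against 610, 533, 600 and 679 CPM in BMDM_T (log2 fold change 0.66 ± 0.16, adjusted p = 0.0012 by edgeR). Atp5c1, the gamma subunit that turns inside the head, had 191, 209 and 334 CPM in TAM, against 130, 167, 111 and 159 CPM in BMDM_T (log2 fold change 0.79 ± 0.22, adjusted p = 0.00478), and was not called without TAM replicate 3. Each of these 4 genes was above all BMDM_T libraries in all 3 TAM libraries. Atp5c1 had 205, 245, 151 and 128 CPM in BMDM_H, which overlapped TAM, and was not called over BMDM_H. The remaining F1 gene, Atp5e for the epsilon subunit, had 606, 491 and 587 CPM in TAM, against 513, 540, 516 and 534 CPM in BMDM_T, and its log2 fold change of 0.10 ± 0.17 was not called (adjusted p = 0.65 by edgeR). Summed over the 5 genes, F1 reached 3604 ± 206 CPM in TAM, 2444 ± 174 CPM in BMDM_T and 2196 ± 106 CPM in BMDM_H.

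**Figure D3:**
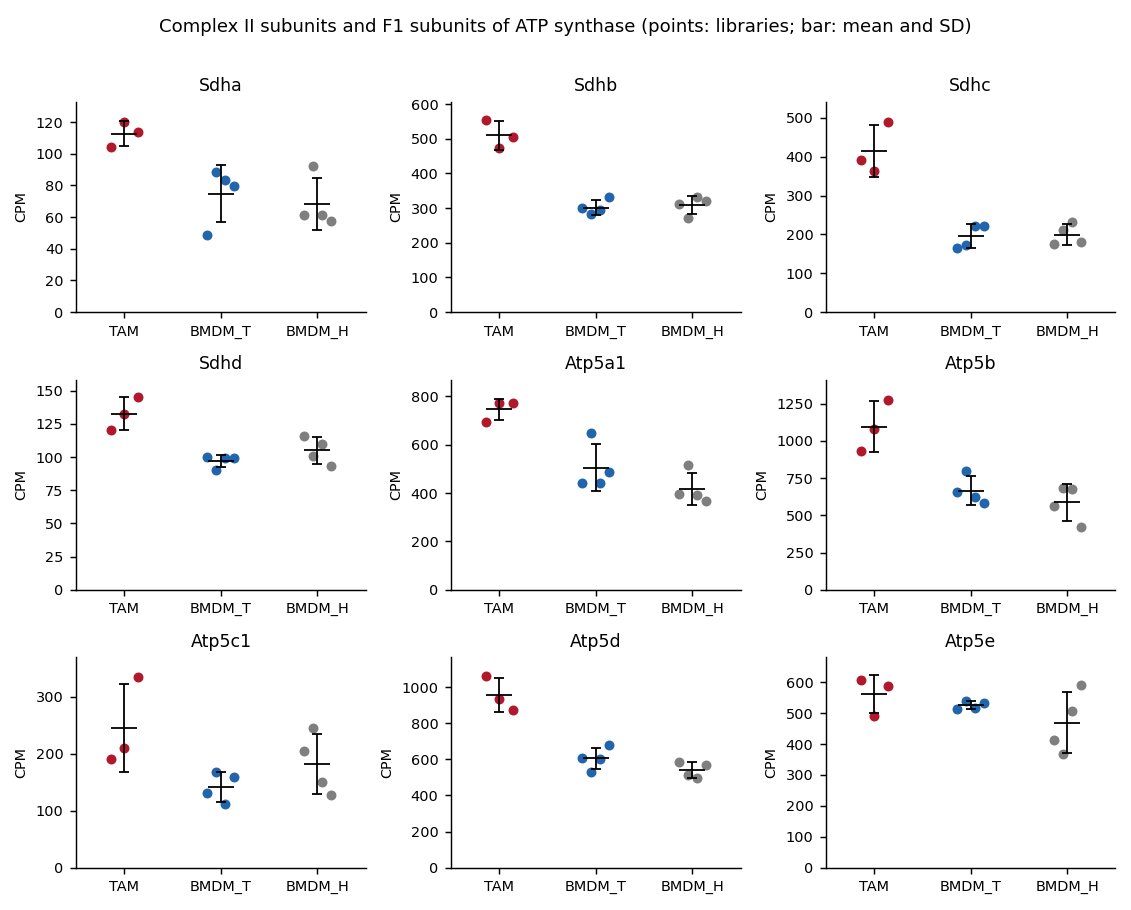
CPM of the 4 complex II genes and the 5 F1 genes of ATP synthase in each library (points), with the group mean and SD (bars). In every panel but that of Atp5e the TAM libraries lie above all BMDM_T libraries. The largest log2 fold change of TAM over BMDM_T among these 9 genes was that of Sdhc, 1.09.

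The peripheral stalk, which holds the head still, had none of 4 genes higher and Atp5j lower. Atp5j (chr16:84827866-84835625, minus strand), which encodes a stalk subunit, had 33.9, 32.9 and 32.3 CPM in TAM, against 73.2, 89.1, 61.2 and 38.8 CPM in BMDM_T and 56.5, 29, 40.9 and 10.4 CPM in BMDM_H. The log2 fold change over BMDM_T was -0.99 ± 0.30 (adjusted p = 0.00715 by edgeR), with no overlap. Over BMDM_H it was -0.17 ± 0.32 (adjusted p = 0.677), and the marrow groups spread widely. The other stalk genes, Atp5f1, Atp5h and Atp5o, had log2 fold changes of -0.35 ± 0.17, -0.07 ± 0.15 and 0.31 ± 0.15, none of them called. Summed, the stalk genes had 1045 ± 58.7 CPM in TAM and 1160 ± 59.5 CPM in BMDM_T.

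In the membrane part, 1 of 4 tested genes was higher. Atp5g3, which encodes the proton-carrying c subunit, had 750, 847 and 1037 CPM in TAM, against 444, 648, 649 and 560 CPM in BMDM_T (log2 fold change 0.61 ± 0.18, adjusted p = 0.00738 by edgeR), and was not called without TAM replicate 3. The same protein subunit is also encoded by Atp5g1 and Atp5g2, which had 11.1, 17 and 17.3 CPM and 5, 10.1 and 8.27 CPM in TAM. Atp5g1 had 0, 13.4, 0 and 9.92 CPM in BMDM_T and 11.9, 11.3, 0 and 0 CPM in BMDM_H, so that each marrow library held either 0 counts or 11 to 16 counts. Atp5j2 and Atp5k were not called in this comparison.

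Complex I had 12 of 34 genes higher and 2 lower in TAM. Without TAM replicate 3, 6 were higher and 4 lower, and without TAM replicate 1, 1 was lower. Of the 7 core subunits, which carry the flavin, the iron-sulfur clusters and the quinone site, 2 were higher and none lower. Ndufs3 (chr2:90894634-90904827, minus strand), in the peripheral arm, had 45, 37.7 and 45 CPM in TAM, against 18.3, 27.7, 16.2 and 17.1 CPM in BMDM_T (log2 fold change 1.08 ± 0.25, adjusted p = 0.00101 by edgeR). Ndufv1, the flavoprotein that binds NADH, had 198, 190 and 207 CPM in TAM, against 134, 129, 142 and 152 CPM in BMDM_T (log2 fold change 0.52 ± 0.14, adjusted p = 0.00436), and lost the call on thinning to the lowest total (adjusted p = 0.056 by edgeR). In both genes the groups did not overlap. Ndufs1, Ndufs7, Ndufs8 and Ndufv2 had log2 fold changes between -0.20 and 0.26 and were not called.

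Of the 27 accessory subunits 10 were higher and 2 lower. The gene with the smallest p among them was Ndufa9 (chr6:126821721-126849136, minus strand), an accessory subunit of the peripheral arm, with 152, 164 and 157 CPM in TAM, against 52.8, 79, 58.9 and 58.6 CPM in BMDM_T and 76.4, 76.4, 66.9 and 44.2 CPM in BMDM_H. Its 3 TAM libraries were close together and far above both marrow groups, and the log2 fold change over BMDM_T was 1.33 ± 0.18 (adjusted p = 2.34e-06 by edgeR). Ndufab1, the mitochondrial acyl carrier protein, had 70, 71.1 and 90 CPM in TAM, against 38.8, 30.3, 52 and 49.6 CPM in BMDM_T (log2 fold change 0.87 ± 0.23, adjusted p = 0.00285). With all libraries thinned to the lowest total, the log2 fold change of Ndufab1 was 0.38 and not called (adjusted p = 0.286 by edgeR). Ndufa12 had 32.8, 39.8 and 62 CPM in TAM, against 40.9, 11.8, 9.24 and 13.53 CPM in BMDM_T (log2 fold change 1.29 ± 0.36, adjusted p = 0.00381), and the groups overlapped through BMDM_T replicate 1. The other 7 higher accessory genes, Ndufa10, Ndufb2, Ndufb4, Ndufb5, Ndufb6, Ndufc1 and Ndufc2, had log2 fold changes of 0.41 to 0.72, and all of them but Ndufb5 lost the call in at least 1 fit with a library left out, each of these 6 without TAM replicate 3.

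Both lower genes encode accessory subunits of the membrane arm. Ndufb7 (chr8:83566671-83571626, plus strand) had 474, 362 and 360 CPM in TAM, against 871, 690, 988 and 1142 CPM in BMDM_T and 904, 649, 929.8 and 1142 CPM in BMDM_H. The TAM libraries lay below every marrow library, and the log2 fold change over BMDM_T was -1.21 ± 0.21 (adjusted p = 5.52e-05 by edgeR). In both marrow groups Ndufb7 had the highest level of the complex I genes, 923 ± 191 CPM in BMDM_T and 906 ± 202 CPM in BMDM_H, on counts that are not divided by length. Ndufb11 had 279, 301 and 320 CPM in TAM, against 382, 450, 478 and 373 CPM in BMDM_T (log2 fold change -0.49 ± 0.17, adjusted p = 0.0165), and was not called without TAM replicate 1 or with scaling to total counts alone. The abundant Ndufa2 and Ndufb8 were not called, with log2 fold changes of -0.18 ± 0.21 and 0.08 ± 0.15.

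Complex III had 1 of 9 genes higher and none lower. Cyc1 (chr15:76343523-76346260, plus strand), which encodes cytochrome c1, had 164, 204 and 300 CPM in TAM, against 132, 145, 141 and 143 CPM in BMDM_T and 154, 206, 149 and 93.7 CPM in BMDM_H. The log2 fold change over BMDM_T was 0.68 ± 0.21 (adjusted p = 0.00997 by edgeR) and was not called without TAM replicate 3. Uqcrfs1, the Rieske iron-sulfur protein, had 173, 203 and 282 CPM in TAM, against 115, 182, 177 and 179 CPM in BMDM_T (log2 fold change 0.43 ± 0.20, adjusted p = 0.0682). Uqcrh, the hinge protein that docks cytochrome c, had 716, 742 and 526 CPM in TAM, against 654, 917, 1059 and 964 CPM in BMDM_T. Its log2 fold change of -0.44 ± 0.19 missed the threshold (adjusted p = 0.0545) and passed it in 10 of 21 alternative fits. Uqcrb was measured at 5.3 to 12.9 CPM in TAM and at 1.08 to 25.4 CPM in BMDM_T, a spread that leaves a log2 fold change of 0.45 ± 0.66.

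Complex IV had 3 of 15 tested genes higher and 2 lower, and the largest differences were in subunits that have more than one isoform. Cox4i2 (chr2:152754173-152765037, plus strand), the second isoform of subunit 4, known for its expression in lung, had 16, 23 and 72 counts in TAM and 0 counts in all 8 marrow libraries. That corresponds to 8.89, 12.2 and 18.6 CPM in TAM and makes the TAM mean of 13.2 CPM at least 18.1-fold higher than in BMDM_T and at least 15.1-fold higher than in BMDM_H, against a floor of 3 counts over all libraries of the marrow group, which covers counting error only (adjusted p = 1.37e-05 and 3.06e-05 by edgeR). Cox4i1, the main isoform, was not called, with 1447, 1779 and 1565 CPM in TAM, against 1110.1, 1301, 1778 and 1650 CPM in BMDM_T (log2 fold change 0.13 ± 0.19, adjusted p = 0.566). The log2 ratio of Cox4i2 to Cox4i1 counts in TAM was -6.98 ± 0.51.

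Cox6b2 (chr7:4751792-4753094, minus strand), the isoform of subunit 6b described in testis, ran the other way with 0.556, 3.18 and 1.55 CPM in TAM, against 16.2, 13.4, 16.2 and 25.3 CPM in BMDM_T and 21.5, 17.7, 20.5 and 20.8 CPM in BMDM_H. These rest on 1, 6 and 6 counts in TAM and on 8 to 28 counts in the marrow libraries. The log2 fold change over BMDM_T was -3.29 ± 0.42 (adjusted p = 9.42e-07 by edgeR), while Cox6b1, the main isoform, had 558, 552 and 551 CPM in TAM and 377 to 581 CPM in BMDM_T (log2 fold change 0.13 ± 0.17, adjusted p = 0.537). The log2 ratio of Cox6b2 to Cox6b1 was -8.63 ± 1.27 in TAM (SD, n = 3), -4.86 ± 0.46 in BMDM_T and -4.33 ± 0.11 in BMDM_H (n = 4 each).

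Cox7a1 (chr7:30184144-30186078, plus strand), the heart and muscle isoform of subunit 7a, had 20.6, 9.55 and 13.2 CPM in TAM, against 4.31, 1.68, 6.93 and 3.61 CPM in BMDM_T and 2.39, 3.22, 3.72 and 0 CPM in BMDM_H. The TAM libraries were above all marrow libraries, with a log2 fold change over BMDM_T of 1.83 ± 0.45 (adjusted p = 0.00138 by edgeR). Cox7a2, the isoform of most other tissues, had 178, 232 and 312 CPM in TAM and 265 to 328 CPM in BMDM_T and was not called (log2 fold change -0.27 ± 0.20, adjusted p = 0.249). The log2 ratio of Cox7a1 to Cox7a2 was -4.09 ± 0.85 in TAM and -6.30 ± 0.93 in BMDM_T. Counts of Cox6a2, the heart and muscle isoform of subunit 6a, were 1 to 14 in each library, too few for the test.

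The other calls in complex IV were Cox5a and Ndufa4. Cox5a (chr9:57521274-57532426, plus strand), which binds beside subunit 4, had 418, 416 and 614 CPM in TAM, against 250, 334, 267 and 262 CPM in BMDM_T (log2 fold change 0.80 ± 0.17, adjusted p = 0.000493 by edgeR). Ndufa4 (chr6:11900292-11907497, minus strand), named for complex I and now assigned to complex IV, had 51.1, 29.7 and 20.9 CPM in TAM, against 73.2, 62.2, 56.6 and 68.6 CPM in BMDM_T and 54.1, 43.4, 42.8 and 33.8 CPM in BMDM_H. The log2 fold change was -0.98 ± 0.25 over BMDM_T (adjusted p = 0.00215) and -0.45 ± 0.26 over BMDM_H (adjusted p = 0.157). Cox7a2l, a factor that links complexes III and IV into supercomplexes, was not called (log2 fold change 0.12 ± 0.17).

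**Figure D4:**
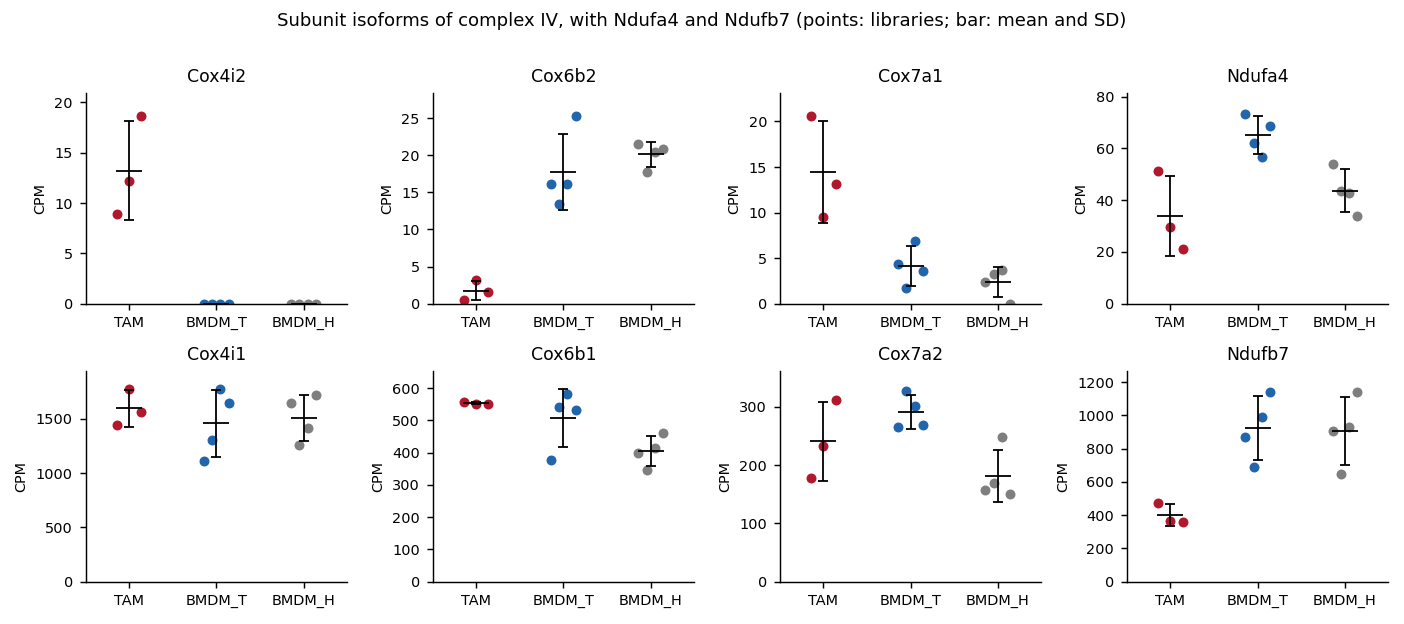
CPM of isoforms of complex IV subunits, of Ndufa4 and of Ndufb7 in each library (points), with the group mean and SD (bars). Cox4i2 is at 0 in all marrow libraries, Cox6b2 lies at 0.556 to 3.18 CPM in TAM and at 13.4 CPM or more in marrow, and the main isoforms Cox4i1, Cox6b1 and Cox7a2 below them overlap between TAM and BMDM_T.

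Among the assembly factors, Ndufaf3 was lower in TAM, with 47.8, 38.2 and 41.1 CPM in TAM, against 59.2, 74.8, 61.2 and 60.4 CPM in BMDM_T (log2 fold change -0.60 ± 0.20, adjusted p = 0.0121 by edgeR). The other 5 tested genes of this group, all less abundant than Ndufaf3 in TAM, were not called in this comparison. Lists of related genes that the rule did not include were counted beside them. Of 22 tested genes listed as assembly factors for complexes II to V and for complex I outside the Nduf names, 7 were higher and 2 lower in TAM. Their median log2 fold change was 0.13, beside 0.03 for all genes. Atpif1, which encodes an inhibitor of ATP synthase and not an assembly factor, is among the 7 (log2 fold change 0.58 ± 0.17, adjusted p = 0.0063 by edgeR). Usmg5, an ATP synthase subunit, is also on the list and was not called. Sdhaf1 and Sdhaf4, assembly factors of complex II, were among the higher ones, with log2 fold changes of 1.08 ± 0.25 and 1.58 ± 0.36 (adjusted p = 0.0011 and 0.00083 by edgeR). Sco2, which delivers copper to complex IV, averaged 50.9 CPM in TAM and 8.33 CPM in BMDM_T (log2 fold change 2.64 ± 0.29, adjusted p = 1.4e-07), while Surf1 and Cox19, also complex IV factors, were lower (log2 fold changes -0.45 ± 0.18 and -0.76 ± 0.20).

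Of 8 tested carriers and pores of the mitochondrial membranes, 6 were higher and none lower in TAM, with a median log2 fold change of 0.66. Slc25a3, the phosphate carrier that feeds ATP synthase, averaged 889 CPM in TAM and 322 CPM in BMDM_T (log2 fold change 1.47 ± 0.19, adjusted p = 1.3e-06 by edgeR), and Slc25a4, an ADP/ATP translocase, averaged 169 CPM and 36.1 CPM (log2 fold change 2.23 ± 0.19, adjusted p = 4.6e-09). Of 17 tested genes of the citric acid cycle and pyruvate entry, 7 were higher and 2 lower. Fh1, the fumarase that takes the product of complex II, averaged 77.7 CPM in TAM and 38.2 CPM in BMDM_T (log2 fold change 1.03 ± 0.25, adjusted p = 0.0012), while Mdh2, malate dehydrogenase, and Mpc2, a subunit of the pyruvate carrier, were lower (log2 fold changes -0.66 ± 0.22 and -0.93 ± 0.21). Of 17 tested genes of protein import and upkeep, 10 were higher and 3 lower, with a median of 0.66. Of 11 tested nuclear regulators, 3 were higher (Ppargc1b, Pprc1 and Hif1a) and 2 lower (Nrf1, log2 fold change -1.09 ± 0.20, and Esrra, -0.46 ± 0.15). Over all genes tested, 58.9% were called in TAM against BMDM_T, 30.1% higher and 28.7% lower, and the counts of these lists stand beside those shares. No set test was run, and these lists were not compared with each other.

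BMDM_T against BMDM_H compares the same marrow gate in mice with and without a tumor. Atp5k, Cox7b, Cox7a2 and Uqcr11 were higher in BMDM_T, and no gene of complex I, complex II or the assembly factors was called. Of the 81 tested genes 4 were higher and none lower, 4.94%, against 4.82% of all genes tested, of which 2.82% were higher and 2.00% lower, so the share was at the background. Of the 81 genes, 56 had a positive and 24 a negative log2 fold change, with a median of 0.16 beside -0.015 for all genes. In 11 the libraries did not overlap (13.6%, against 11.2% of all genes tested). By DESeq2 7 genes were higher and none lower.

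Atp5k (chr5:108433244-108434448, minus strand), subunit e in the membrane part of ATP synthase, had 521, 629, 470 and 467 CPM in BMDM_T, against 279, 288, 400 and 260 CPM in BMDM_H. The groups did not overlap, the log2 fold change was 0.77 ± 0.17 (SE, adjusted p = 0.00826 by edgeR), and the call was kept with each of the 11 libraries left out in turn. Cox7b (chrX:106015700-106022450, plus strand), a small subunit of complex IV, had 129, 181, 140 and 109 CPM in BMDM_T, against 78.8, 84.5, 102 and 75.5 CPM in BMDM_H (log2 fold change 0.72 ± 0.18, adjusted p = 0.0224). Cox7a2 (chr9:79755361-79759878, minus strand) had 265, 328, 301 and 269 CPM in BMDM_T, against 158, 169, 247 and 151 CPM in BMDM_H (log2 fold change 0.69 ± 0.19, adjusted p = 0.0405). Uqcr11 (chr10:80402997-80406830, minus strand), a small accessory subunit of complex III, had 412, 427, 412 and 485 CPM in BMDM_T, against 287, 290, 299 and 341 CPM in BMDM_H (log2 fold change 0.52 ± 0.15, adjusted p = 0.049). All 4 BMDM_T libraries were above all 4 BMDM_H libraries in each gene.

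Apart from Atp5k, these calls hung on single libraries. Without BMDM_T replicate 2, or without BMDM_H replicate 2, only Atp5k was called. Without BMDM_T replicate 3, or without BMDM_T replicate 4, Atp5k and Cox7b were called. Without BMDM_H replicate 4, Atp5k and Uqcr11 were. Without BMDM_H replicate 1, Cox7b, Cox7a2 and Uqcr11 lost the call, and Atp5j was called beside Atp5k. With BMDM_H replicates 3 and 4 both left out, the libraries with the lowest totals, only Atp5k was called. Atp5j had 73.2, 89.1, 61.2 and 38.8 CPM in BMDM_T, against 56.5, 29, 40.9 and 10.4 CPM in BMDM_H, with a log2 fold change of 0.83 ± 0.30 (adjusted p = 0.129). With the replicate number as a block it was 0.96 and was called (adjusted p = 0.0167). The summed CPM of complex II was level between the marrow groups, with 669 ± 54 CPM in BMDM_T and 681 ± 36 CPM in BMDM_H (SD, n = 4 each). The log2 fold changes of its 4 genes lay between -0.12 and 0.10. As a share of the 85 genes, complex II was lower in BMDM_T, with 2.83% to 3.22%, against 3.41% to 3.7% in BMDM_H.

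Markers of other cells moved in this comparison too. All 7 tested red cell precursor markers were lower in BMDM_T, with a summed level of 6.31 to 20.2 CPM, against 59.7 to 315 CPM in BMDM_H, and Kel and Cldn13 were at 0 in BMDM_T. All 4 monocyte markers were lower as well (1026 to 1599 CPM summed in BMDM_T, against 1663 to 3157 CPM in BMDM_H), and of the 12 neutrophil granule markers 5 were higher and none lower. Their part in the 4 calls was not tested. None of the 17 citric acid cycle genes, 22 genes of the assembly factor list, 8 carriers and pores, 17 import and upkeep genes or 11 regulators was called between the marrow groups. Over all genes tested, 4.82% were called.

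**Figure D5:**
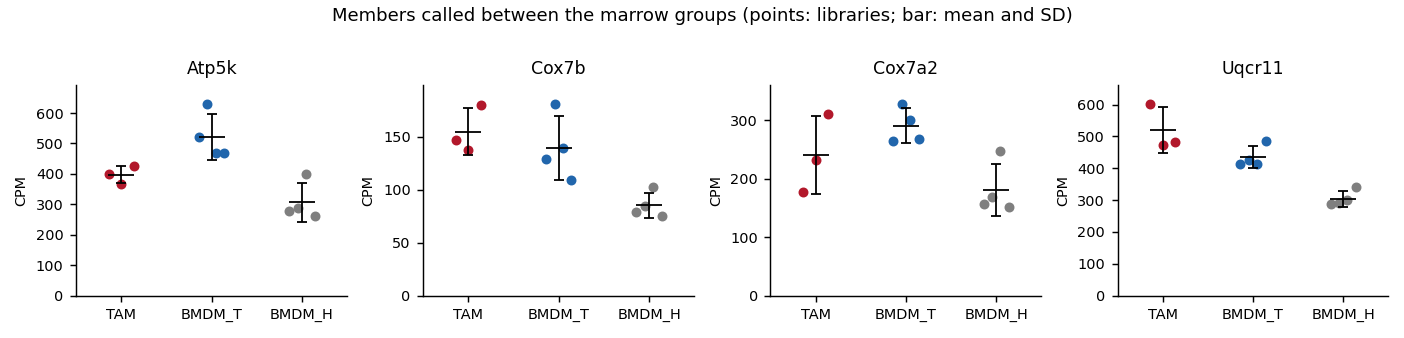
CPM of the 4 genes called between the marrow groups in each library (points), with the group mean and SD (bars), and TAM beside them. The BMDM_T libraries lie above the BMDM_H libraries in each panel. For Atp5k they have 467 to 629 CPM, against 260 to 400 CPM in BMDM_H.

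For the 4 genes called in marrow, the parts of the RefSeq promoter windows (GRCm38.p6) without annotated exons are shown 5′ to 3′ on the gene's strand, with motif matches in capitals. The ETS letters CCGGAAGT occurred before Uqcr11, at 66 bases from its start. The window of Atp5k held the NRF1 letters 50 bases before its start, at the edge of the stretch shown, which cuts them. Cox7b and Cox7a2 held none of the 4 motifs, so no motif was common to the 4 windows.
Atp5k, chr5:108434449-108434649, minus strand: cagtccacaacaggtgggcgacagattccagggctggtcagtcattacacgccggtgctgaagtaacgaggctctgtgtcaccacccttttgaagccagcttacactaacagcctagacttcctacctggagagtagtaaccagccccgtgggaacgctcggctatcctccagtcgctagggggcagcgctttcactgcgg
Cox7b, chrX:106015450-106015699, plus strand: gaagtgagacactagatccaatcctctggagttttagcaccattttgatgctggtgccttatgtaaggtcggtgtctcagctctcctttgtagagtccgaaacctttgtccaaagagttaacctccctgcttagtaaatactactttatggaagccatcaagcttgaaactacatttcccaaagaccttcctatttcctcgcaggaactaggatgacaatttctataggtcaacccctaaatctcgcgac
Cox7a2, chr9:79759879-79760103, minus strand: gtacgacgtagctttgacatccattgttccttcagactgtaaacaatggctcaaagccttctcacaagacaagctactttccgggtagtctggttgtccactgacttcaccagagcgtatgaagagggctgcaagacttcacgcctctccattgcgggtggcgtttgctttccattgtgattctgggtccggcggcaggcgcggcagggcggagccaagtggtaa
Uqcr11, chr10:80406831-80407071, minus strand: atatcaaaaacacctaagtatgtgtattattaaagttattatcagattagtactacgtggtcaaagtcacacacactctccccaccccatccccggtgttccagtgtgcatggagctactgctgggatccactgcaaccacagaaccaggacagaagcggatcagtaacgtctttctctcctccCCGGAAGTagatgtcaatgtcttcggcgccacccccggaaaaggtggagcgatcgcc

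TAM against BMDM_H shares its libraries with both comparisons above, so its values are given beside theirs and not as a repeat of them. Here 33 of the 81 genes were higher and 4 lower in TAM, 45.7%, against 56.3% of all genes tested, of which 28.0% were higher and 28.3% lower. Complex IV had 7 higher and 1 lower of 15, complex V 6 higher of 13, complex III 3 higher of 9, complex I 13 higher and 2 lower of 34, and complex II 3 higher of 4. The median log2 fold change was 0.38, beside 0.02 for all genes, and in 40 genes the libraries did not overlap (49.4%, against 53.8% of all genes tested).

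The genes that stood between TAM and healthy marrow but not between TAM and BMDM_T numbered 11. Uqcrq, a small subunit of complex III, had 756, 860 and 982 CPM in TAM and 586, 764, 787 and 769 CPM in BMDM_T, against 513, 541, 593 and 494 CPM in BMDM_H. Its log2 fold change was 0.69 ± 0.17 for TAM over BMDM_H (adjusted p = 0.00135 by edgeR), 0.25 ± 0.16 for TAM over BMDM_T (adjusted p = 0.191) and 0.44 ± 0.16 for BMDM_T over BMDM_H (adjusted p = 0.116). Uqcr11 had 603, 472 and 483 CPM in TAM, with a log2 fold change over BMDM_H of 0.78 ± 0.16 (adjusted p = 0.000311), and Cox7b had 147, 137 and 180 CPM in TAM, with 0.87 ± 0.19 (adjusted p = 0.000525). Cox6a1, Cox6b1, Cox7c, Atp5j2, Atp5o, Ndufs8, Ndufv3 and Ndufaf2 were called higher here and not over BMDM_T, with log2 fold changes of 0.43 to 1.40. Cox6b1, Atp5j2, Atp5o and Ndufv3 did not keep the call over BMDM_H in every fit with a library left out. The difference between a call over BMDM_H and no call over BMDM_T is the BMDM_T against BMDM_H comparison, in which 2 of these 11 genes, Uqcr11 and Cox7b, were called.

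Some values rest on genes that cannot be counted cleanly. Over the last 200 bases of their transcripts, Cox7c, Atp5h, Atp5g2 and Atp5o matched transcripts of other genes at 98% identity or more (GENCODE transcripts, GRCm38). Among the genes called in TAM against BMDM_T, exons of Ndufs3, Ndufa9, Ndufab1, Ndufb2, Ndufb5, Ndufb6, Ndufb11, Cox5a, Atp5a1, Atp5d, Atp5j and Ndufaf3 overlap exons of a gene on the opposite strand. The same holds for Ndufs1, Ndufa2, Uqcrb, Cox4i1, Cox6a2, Atp5f1, Atp5l and Ndufaf2 among the other genes named above, and exons of Ndufb2, Ndufb8 and Atp5o overlap those of another gene on the same strand. Whether the counting used strand is not given in the sources used here. Their values are uncertain to that extent.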

How the data were processed

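Sorted TAM, BMDM_T and BMDM_H cells were sequenced as 3′-end mRNA libraries with barcodes and unique molecular identifiers, per the labels' protocols. The authors deposited raw counts per gene in 1 table. The submitters' processing notes name bcl2fastq, STAR 2.4.2a, HTSeq and the mm10 build, and whether identifiers were collapsed or strand was used is not given in the sources used here. Of the count columns 6 were not used, because their rows follow another order than the symbols. Groups come from the labels.

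From the deposited counts, edgeR 4.0.16 (R 4.3.3) fitted quasi-likelihood models to all 11 libraries, with filterByExpr, TMM factors and no covariate, and p-values were adjusted by Benjamini-Hochberg over 7518 genes, with a threshold of 0.05. The scripts were tested on simulated data. Alternatives were RLE factors, total counts alone, no low-count filter, DESeq2 1.42.0, limma-voom (limma 3.58.1), glmTreat against a fold of 1.5, thinning to the lowest total, the 2 groups alone, a replicate block and leaving libraries out. Deviations from the group mean in same-numbered BMDM_T and BMDM_H libraries correlated at 0.214, 0.239, 0.129 and 0.121, whereas TAM correlated at -0.034 to 0.078 with BMDM_T. Libraries of different numbers were not compared, so these values cannot show that the replicate number pairs libraries. No stated batch ties them either. The floor of 3 counts covers counting error only, while the SE and SD values include the spread between libraries.

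Genes named in full were complex II, Cyc1 and the isoform pairs, then in each comparison and complex up to 5 called genes with the smallest p in each direction and the 2 most abundant not called. Other genes named were chosen after their values were seen. The members and lists were chosen with earlier results of these data known. Promoter windows come from RefSeq (GRCm38.p6), loci and exons from GENCODE (GRCm38), and near copies were sought with blastn 2.17.0. Some single-gene results are not reported here.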

Additional observations from a re-analysis of the deposited data

Results flagged for a closer look

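In groups of 4 libraries, 7 values stood apart from the other 3 by Dixon's test at its 95% critical value of 0.829, among 112 groups screened, and chance flags about 1 in 20. Ndufa12 had 40.9 CPM in BMDM_T replicate 1, against 9.24 to 13.53 CPM in the other BMDM_T libraries. In the same library Uqcrq had 586 CPM, against 764 to 787 CPM, and the summed level of all 85 genes was 20110.4 CPM, against 22346 to 22681 CPM. BMDM_T replicate 2 had 89.9 CPM of Sdhd, against 99.2 to 100.1 CPM, and 74.8 CPM of Ndufaf3, against 59.2 to 61.2 CPM. Sdha had 92.5 CPM in BMDM_H replicate 2, against 57.3 to 61.4 CPM in the other BMDM_H libraries. Cox6a2 had 9.30 CPM in BMDM_H replicate 3, against 4.78 to 5.20 CPM, on 2 to 6 counts per library.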

How the results depend on the processing

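No result changed sign among calls under the alternatives run. Against a fold of 1.5 (glmTreat), 6 genes were higher and 3 lower in TAM than in BMDM_T, 0 were higher in BMDM_T than in BMDM_H, and 12 were higher and 2 lower in TAM than in BMDM_H, since that test asks for a larger change. The 6 genes higher in TAM than in BMDM_T were Cox4i2, Cox7a1, Ndufa12, Ndufa9, Ndufs3 and Sdhc. Of complex II only Sdhc was thus called against that fold, and of the F1 genes none. With 1 library left out, the TAM against BMDM_T counts were 16 to 26 higher and 5 to 9 lower, the BMDM_T against BMDM_H count was 1 to 4 higher, and the TAM against BMDM_H counts were 27 to 34 higher and 4 to 6 lower. The BMDM_T against BMDM_H count was 7 by DESeq2, 1 with total counts alone and 1 without BMDM_H replicates 3 and 4, and the cause was not tested. Scaling to total counts alone moved the median log2 fold change of all genes to 0.178 for TAM over BMDM_T and to -0.125 for BMDM_T over BMDM_H. With it the log2 ratios of summed levels for TAM over BMDM_T were 0.286 for all genes, 0.1113 for complex I (main value -0.0409), 0.9585 for II, 0.2005 for III, 0.297 for IV and 0.4576 for V. For BMDM_T over BMDM_H they were 0.0766 for all genes, -0.1278 for II, 0.1067 for IV and 0.126 for V. With the replicate number as a block, 25 genes were higher and 7 lower in TAM than in BMDM_T, 5 were higher in BMDM_T than in BMDM_H and 34 were higher and 4 lower in TAM than in BMDM_H. Thinning to the lowest total left 17 higher and 6 lower in TAM against BMDM_T, and Cox4i2, Cox6b2 and Cox7a1 then had too few counts to test. Of the genes still tested, Ndufab1, Ndufb2, Ndufb4, Ndufb5, Ndufc1, Ndufv1 and Sdhd lost the call on thinning.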
